A study of Mus musculus with 6 samples.

Results

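Chemokine genes were examined after food deprivation in the epididymal fat of male mice, a visceral white adipose depot. The genes were chosen by name: Ccl2 and Ccl7, which encode attractants of monocytes, and Ccl5, Ccl21a and Cxcl12, which encode chemokines of lymphoid cells, lymphoid tissue and stroma. All 5 were found among the 3162 genes held for each library. The fasted group was 3 wild-type C57BL/6J males aged 16 weeks that had no food for 24 h, and the fed group was 3 males of the same strain, genotype and age on normal feed. Each library stands for a separate mouse, the series' design text giving 3 biological replicates per group, and 70 mg of tissue was lysed per sample. Replicate numbers only name mice, and pair no fasted mouse with a fed one. Levels are FPKM, fragments scaled to transcript length and to the mapped total of the library, which allows levels of different genes to be compared.

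Chemokines are small secreted proteins that bind receptors coupled to inhibitory G proteins on leukocytes and guide their movement. They are named for the spacing of the first cysteines of the mature protein, adjacent in the CC family and separated by another residue in the CXC family. CCL2 and CCL7 act mainly through the receptor CCR2, which draws monocytes from blood into tissue, and Ccl2 is known for its rise in the adipose tissue of obese mice. CCL5 attracts T cells, NK cells and monocytes. CCL21 guides lymphocytes and dendritic cells through CCR7 along lymphatic vessels and into lymph nodes, and CXCL12, made by fibroblasts and other stromal cells, acts on CXCR4.

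The coding sequences of the 5 genes are shown where they carry the family-defining cysteine codons, because the family division can then be read against the direction of change. Each line gives the coding strand, 5′ to 3′, from the GENCODE transcripts of GRCm38, with the cysteine codons in capitals.
Ccl2: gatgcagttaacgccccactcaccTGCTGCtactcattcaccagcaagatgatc
Ccl7: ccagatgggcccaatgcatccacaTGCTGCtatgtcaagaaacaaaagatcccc
Ccl5: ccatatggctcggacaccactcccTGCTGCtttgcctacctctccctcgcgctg
Ccl21a: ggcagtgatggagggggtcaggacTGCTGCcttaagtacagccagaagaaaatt
Cxcl12: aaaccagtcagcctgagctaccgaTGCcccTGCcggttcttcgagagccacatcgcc
Of these, Ccl2, Ccl7, Ccl5 and Ccl21a have adjacent cysteine codons and Cxcl12 has a codon between them. Over the whole coding sequence, Ccl2 and Ccl7 were 72.1% identical at aligned bases, and the other pairs among the 5 lay between 60.5% and 68.4%. The CC genes include both genes that fell in fasted tissue and genes that rose.

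Ccl2 (ENSMUSG00000035385) spans 82035571 to 82037453 of chromosome 11, plus strand (GRCm38, as are all gene positions here). Ccl7 (ENSMUSG00000035373) follows it on the same strand at 82045712 to 82047525, with 10.1 kb between the gene starts. Ccl5 (ENSMUSG00000035042) spans 83525778 to 83530518 of the same chromosome, minus strand. Ccl21a (ENSMUSG00000094686) spans 42772860 to 42773993 of chromosome 4, minus strand, and Cxcl12 (ENSMUSG00000061353) spans 117168535 to 117181367 of chromosome 6, plus strand. All 5 are protein-coding. None of their exons overlaps an exon of another annotated gene.

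Ccl2 and Ccl7, grouped here as monocyte attractants, were lower in fasted fat, and Ccl5, Ccl21a and Cxcl12, grouped as lymphoid and stromal chemokines, were higher. As CCL5 attracts monocytes too, the falls are those of these CCR2 ligands and not of monocyte attractants as a class. Ccl2 and Ccl7 were 3.24-fold and 4.18-fold lower by the ratio of fed to fasted group means. Ccl5 was 2.79-fold, Ccl21a 6.15-fold and Cxcl12 1.97-fold higher by the ratio of fasted to fed means. In each of the 5 genes the fasted and fed libraries did not overlap. These results stand beside a high background: the groups did not overlap in 93.4% of all 3162 genes held, and limma, a linear model on log2(FPKM + 1) with Benjamini-Hochberg adjusted p under 0.05, called 90.5% of the 2999 genes tested, 41.1% as higher and 49.4% as lower in fasted tissue. Nearly all genes held thus differed between these same libraries, and 5 of 5 members called is near that background and is no result about chemokines in particular. The 3162 genes are a part of the 55450 annotated ones that appears to have been selected for differing in this contrast, by a rule not given in the sources used here. Adjusted p-values, ranks and medians over the genes tested hold within that selected set only. With median-ratio scaling of the libraries, higher genes were 61.1% of all calls, against 45.4% with the values as deposited. With calls adjusted over all annotated genes, genes not tested being given the largest possible p, 12.1% of the tested genes passed, and Ccl5 was the member among them.

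Ccl2, the ligand best known for recruiting monocytes, had 3.71, 2.15 and 1.69 FPKM in the fasted libraries, against 9.21, 8.76 and 6.47 FPKM in the fed libraries. Every fasted library was below every fed library. The means were 2.52 ± 1.06 FPKM in fasted and 8.15 ± 1.47 FPKM in fed tissue (SD, n = 3 each). The log2 fold change, fasted over fed on the log2(FPKM + 1) scale, was -1.41 ± 0.24 (SE; 95% interval -1.96 to -0.86; limma adjusted p = 0.0029, and 0.0535 over all annotated genes). Because bulk tissue was measured, fewer cells making a transcript and less transcript per cell cannot be told apart here or below.

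Ccl7, which encodes a second CCR2 ligand, had 2.13, 1.08 and 1.56 FPKM in the fasted libraries, against 10.4, 4.97 and 4.56 FPKM in the fed libraries. Fed replicate 1 held the highest value by a wide margin, and the lowest fed library was still 2.14 times the highest fasted library. The log2 fold change was -1.50 ± 0.30 (SE; 95% interval -2.19 to -0.81; limma adjusted p = 0.00472, and 0.0873 if every annotated gene is counted). Leaving out fed replicate 1 gave -1.17, still called. Ccl7 was below Ccl2 in every library except fed replicate 1, where the ratio of Ccl7 to Ccl2 was 1.13.

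Ccl5, also called RANTES, is made by activated T cells, NK cells and other cells. It had 12.9, 13.1 and 14.2 FPKM in the fasted libraries, against 5.40, 5.98 and 3.04 FPKM in the fed libraries. The fasted mice were close to each other, with a highest-to-lowest ratio of 1.10, whereas the fed mice differed by a ratio of 1.97. The log2 fold change was 1.35 ± 0.21 (SE; 95% interval 0.85 to 1.84; limma adjusted p = 0.00243, and 0.0448 over all annotated genes). Ccl5 and Ccl2 changed places in order of level: the ratio of Ccl5 to Ccl2 was 3.49, 6.07 and 8.41 in the fasted libraries and 0.586, 0.683 and 0.470 in the fed libraries.

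Cxcl12, the CXCR4 ligand made by stromal cells, was the highest of the 5 in every library. It had 129, 108 and 85.0 FPKM in the fasted libraries, against 58.7, 50.0 and 55.0 FPKM in the fed libraries. The fed mice lay within a ratio of 1.17 and all fasted mice lay above them. The log2 fold change was 0.95 ± 0.17 (SE; 95% interval 0.56 to 1.34; limma adjusted p = 0.00333, and 0.0616 over all annotated genes).

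Ccl21a, which encodes a CCR7 ligand, had the largest change and the largest spread. It had 34.0, 68.2 and 67.8 FPKM in the fasted libraries, against 19.1, 1.98 and 6.58 FPKM in the fed libraries. The groups did not overlap, but the highest fed library was 9.63 times the lowest, and 99.8% of the genes tested had a smaller SD of log2(FPKM + 1) among fed mice. The log2 fold change was 2.84 ± 0.63 (SE; 95% interval 1.39 to 4.30; limma adjusted p = 0.00646, and 0.119 over all annotated genes). It was 2.16 without fed replicate 2, which had the lowest Ccl21a, and 3.53 without fed replicate 1, which had the highest fed value. Of the 2999 genes tested, 7 had a larger positive change.

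**Figure D1:**
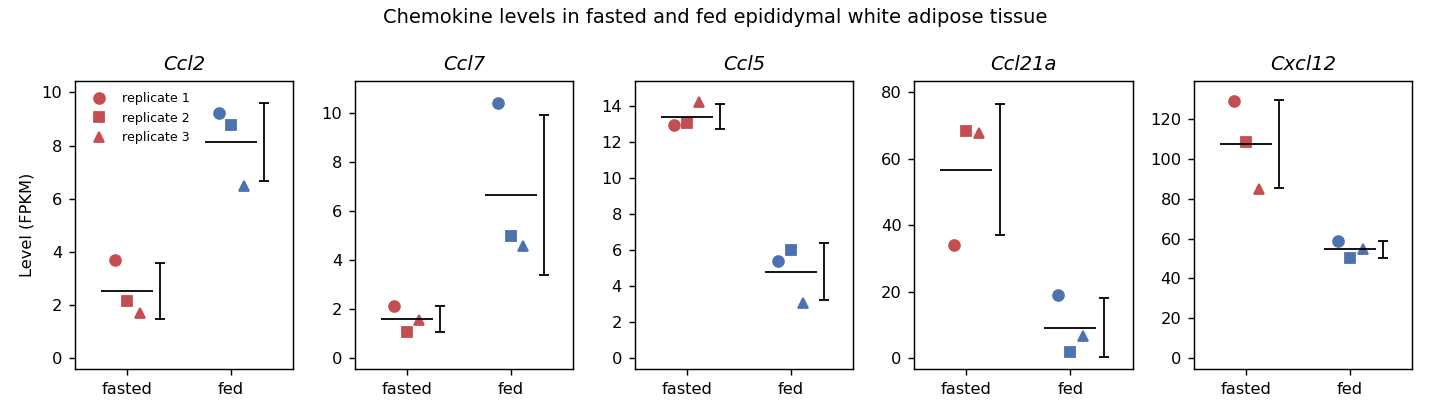
Levels of the 5 chemokine genes in FPKM (linear axes, 1 panel per gene) in fasted and fed libraries, with a marker shape per replicate, a line at the group mean and a bar of ± 1 SD (n = 3). Ccl2 and Ccl7 sit lower in all fasted libraries, Ccl5, Ccl21a and Cxcl12 sit higher, and fed Ccl21a ranges between 1.98 and 19.1 FPKM.

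The value for Ccl21a is uncertain because near-identical copies of the gene exist. The annotation holds Ccl21b, Gm10591 and Gm21541 on chromosome 4, each with 399 coding bases that differ from those of Ccl21a at 2 positions, T84A and C194T, counted from 1 at the first coding base with the base of Ccl21a first. They are 99.5% identical in coding sequence, and reads from them cannot be assigned with certainty. The copies themselves were not analysed here. Coding bases 174 to 213 of Ccl21a and of Ccl21b are printed to show how little separates them, with position 194 in capitals.
Ccl21a: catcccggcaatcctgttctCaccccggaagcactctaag
Ccl21b: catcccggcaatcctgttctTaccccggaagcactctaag

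The 5 genes can be set against each other within a library because FPKM is per length. Ccl2 and Ccl7 together made up 3.21%, 1.67% and 1.91% of the summed FPKM of the 5 genes in the fasted libraries, against 19.1%, 19.1% and 14.6% in the fed libraries. The summed level of the lymphoid and stromal genes was 176, 190 and 167 FPKM in the fasted libraries and 83.2, 58.0 and 64.6 FPKM in the fed libraries. The ratio of Cxcl12 to Ccl2 was 34.8, 50.4 and 50.3 in the fasted libraries, against 6.37, 5.71 and 8.49 in the fed libraries. Each gene alone already separated the groups, so they had to separate in these shares and in any ratio of a rising member or Ccl11 to Ccl2. Such separation is therefore no further result, and the shares also contain the uncertain Ccl21a value. In fasted tissue the order of levels was Cxcl12, Ccl21a, Ccl5, Ccl2 and Ccl7 in every mouse, and only the ranges of Ccl2 and Ccl7, neighbours in that order, overlapped. In fed tissue Cxcl12 was again highest and Ccl2 lay above Ccl5 in every mouse, but the ranges of Ccl21a, Ccl2 and Ccl7 overlapped, as did those of Ccl21a, Ccl7 and Ccl5.

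**Figure D2:**
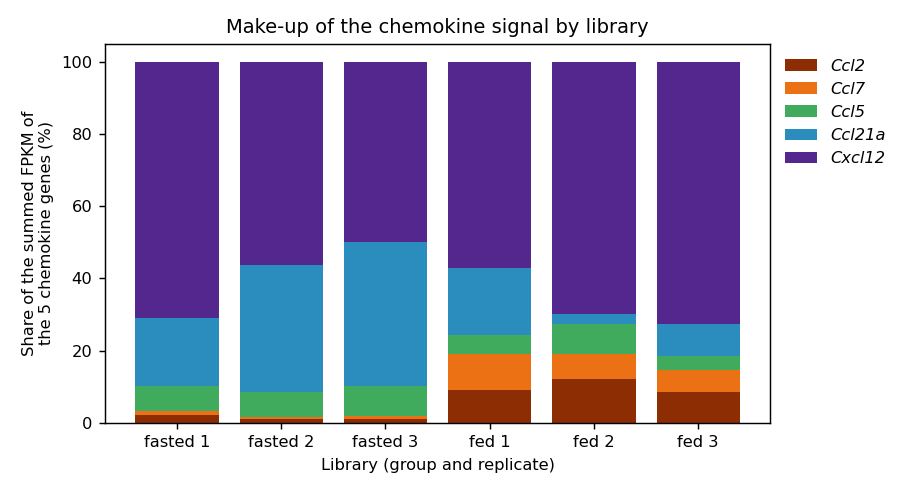
Stacked bars give the percent of the summed FPKM of the 5 chemokine genes that each gene made up, 1 bar per library with fasted libraries on the left. Ccl2 and Ccl7, at the foot of each bar, shrink to between 1.67% and 3.21% in fasted libraries against 14.6% to 19.1% in fed libraries, and the Ccl21a share varies most between libraries. That the groups separate here follows from the levels of the single genes.

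In relation to the other genes held, Ccl21a was the most extreme of the 5 in log2 fold change. The log2(FPKM + 1) scale used for these ranks shrinks the changes of low genes, such as Ccl2 and Ccl7 in fasted tissue. All tested genes had a median log2 fold change of -0.34 with the values as deposited, -0.15 after median-ratio scaling and -0.21 after quantile scaling. Relative to that median the changes were -1.07 for Ccl2, -1.16 for Ccl7, 1.69 for Ccl5, 3.18 for Ccl21a and 1.29 for Cxcl12. Ccl2 had 167 and Ccl7 had 137 genes with a deeper fall, and Ccl5 had 146 and Cxcl12 had 399 genes with a larger rise. In fasted tissue Ccl2 stood above 8.60% and Ccl7 above 4.27% of the tested genes in level, against 31.7% and 26.5% in fed tissue. Ccl5 stood above 46.2% of the genes in fasted and 19.8% in fed tissue, and Ccl21a above 81.4% in fasted and 34.2% in fed tissue. The directions of all 5 were the same under each scaling.

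Sequence upstream of the gene start was compared for Ccl21a and Cxcl12, which both rose and which are the 2 of the 5 genes matched in the RefSeq promoter table (GRCm38.p6). The 250 bases before the start are printed 5′ to 3′ on the strand of the gene. Those of Ccl21a are the minus strand of chr4:42773992-42774241 and those of Cxcl12 the plus strand of chr6:117168285-117168534, and capitals mark matches to the GC box, GGGCGG on either strand. The windows are set on the RefSeq start, so that the one for Ccl21a takes in the outermost 2 bases of the gene as placed above from GENCODE.
Ccl21a: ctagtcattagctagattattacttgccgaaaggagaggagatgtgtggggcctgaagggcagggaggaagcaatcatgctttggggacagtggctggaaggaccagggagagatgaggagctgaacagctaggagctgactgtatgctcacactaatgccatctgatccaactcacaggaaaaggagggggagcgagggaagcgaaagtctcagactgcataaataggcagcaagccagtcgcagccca
Cxcl12: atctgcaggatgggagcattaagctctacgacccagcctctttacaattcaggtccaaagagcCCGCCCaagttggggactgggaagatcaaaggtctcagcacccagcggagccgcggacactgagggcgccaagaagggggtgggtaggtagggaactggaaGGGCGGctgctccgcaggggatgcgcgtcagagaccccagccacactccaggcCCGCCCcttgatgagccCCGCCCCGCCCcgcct
The window of Cxcl12 held 5 matches to the GC box, of which the last pair share a base, and that of Ccl21a held 0, where 32.7% of 32817 promoter windows of this length held at least 1. GC content was 52.8% for Ccl21a and 64.4% for Cxcl12, against a median of 52.4% over all windows. The Ccl21a window had 4 CpG dinucleotides and the Cxcl12 window 14, where the median was 6. Neither window held the TATA box letters TATAAA (12.4% of windows), the NF-kB letters GGGANNNCC (15.8%), the STAT letters TTCNNNGAA (7.01%), the E-box CACGTG (6.02%) or the glucocorticoid response element (0.387%), all searched on both strands. Only these exact letters were searched. The search therefore misses other forms, such as NF-kB sites of another length, or the letters cataaa near the end of the Ccl21a window, and does not show that such elements are absent.

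Of 40 chemokine ligand genes listed, 8 were held, and 6 rose and 2 fell (limma), with a median log2 fold change of 0.89 against -0.34 over all genes tested. That all 8 passed stands beside the 90.5% called among all genes tested, of which 41.1% were higher and 49.4% lower. Over all annotated genes, 1 rise and 0 falls of the ligand list passed. The falls were those of Ccl2 and Ccl7. Besides the members, the rises were those of Ccl11, Ccl19 and Cx3cl1. Ccl11, encoding the eosinophil attractant eotaxin, lies 12.1 kb beyond the start of Ccl7 on the same strand of chromosome 11 (82057823 to 82062955), and went the other way. It had 38.3, 57.5 and 52.3 FPKM in the fasted libraries, against 29.2, 26.9 and 28.2 FPKM in the fed libraries, which gave 0.77 ± 0.16 for the log2 fold change (SE; limma adjusted p = 0.00564). The neighbouring genes of the cluster therefore differed in direction, with the ratio of Ccl11 to Ccl2 at 10.3, 26.7 and 31.0 in the fasted libraries and 3.17, 3.07 and 4.35 in the fed libraries.

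Ccl19, encoding the other CCR7 ligand, lies 17.4 kb from Ccl21a by the distance between gene starts (chromosome 4, 42754525 to 42756577, minus strand), and it moved in the same direction. It had 4.74, 12.0 and 4.25 FPKM in the fasted libraries, against 1.37, 0 and 0.30 FPKM in the fed libraries, where fed replicate 2 was listed at 0. Its log2 fold change was 2.33 ± 0.42 (SE; limma adjusted p = 0.0036). Fed replicate 2 was the lowest library for both CCR7 ligands and fed replicate 1 the highest fed library for both. Cx3cl1, which encodes the membrane-bound chemokine fractalkine, had 6.84, 4.79 and 3.84 FPKM in the fasted libraries and 3.01, 2.14 and 2.07 FPKM in the fed libraries (0.84 ± 0.21, adjusted p = 0.00992). Over all annotated genes the limma adjusted p was 0.104 for Ccl11, 0.0666 for Ccl19 and 0.183 for Cx3cl1, so that none of these 3 passed there.

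Receptors were thinly represented. Of 19 listed chemokine receptor genes only Ccrl2 was held, and CCR2, CCR7 and CXCR4 were not analysed here. Ccrl2, which encodes a non-signalling receptor that presents chemerin, had 4.74, 3.84 and 4.16 FPKM in the fasted libraries, against 1.18, 1.73 and 1.62 FPKM in the fed libraries, and its change of 1.07 ± 0.16 on the log2 scale also passed over all annotated genes (limma adjusted p = 0.00214 and 0.0396).

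Atypical chemokine receptors take up chemokines and degrade them without G protein signalling, and 3 of the 4 listed were held. Ackr3, a scavenger of CXCL12, had 11.3, 14.6 and 16.9 FPKM in the fasted libraries, against 15.0, 53.3 and 22.5 FPKM in the fed libraries, with overlapping groups (-0.86 ± 0.41, adjusted p = 0.072). Without fed replicate 1 the Ackr3 change was -1.25 and passed (adjusted p = 0.0159), and without fed replicate 2, its highest library, it was -0.36 (adjusted p = 0.17). The ratio of Cxcl12 to Ackr3 was 11.5, 7.44 and 5.03 in the fasted libraries and 3.92, 0.939 and 2.44 in the fed libraries. The groups did not overlap in this ratio, but Cxcl12 alone already separated them, so the ratio is no result about Ackr3. Ackr4, a scavenger of CCL19 and CCL21, had 0.98, 1.46 and 1.38 FPKM in the fasted libraries, against 4.39, 3.05 and 1.28 FPKM in the fed libraries (-0.70 ± 0.31, adjusted p = 0.0567). Its change passed with quantile scaling (adjusted p = 0.0301) and without fed replicate 3 (0.0106). Exons of Ackr4 overlap those of Acad11 on the opposite strand, and Acad11 rose (0.99 ± 0.20), so that the value of Ackr4 may hold reads of Acad11.

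Ackr2, a scavenger of inflammatory CC chemokines that include CCL2, CCL5, CCL7 and CCL11, had 0.87, 3.97 and 2.05 FPKM in the fasted libraries and 0.82, 0.87 and 0.58 FPKM in the fed libraries. Fasted replicate 1 equalled the highest fed library. The change of 0.80 ± 0.33 just passed (limma adjusted p = 0.0488) and was lost without fasted replicate 2 or 3 or any single fed library, with adjusted p between 0.0766 and 0.143, and with quantile scaling (0.105).

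**Figure D3:**
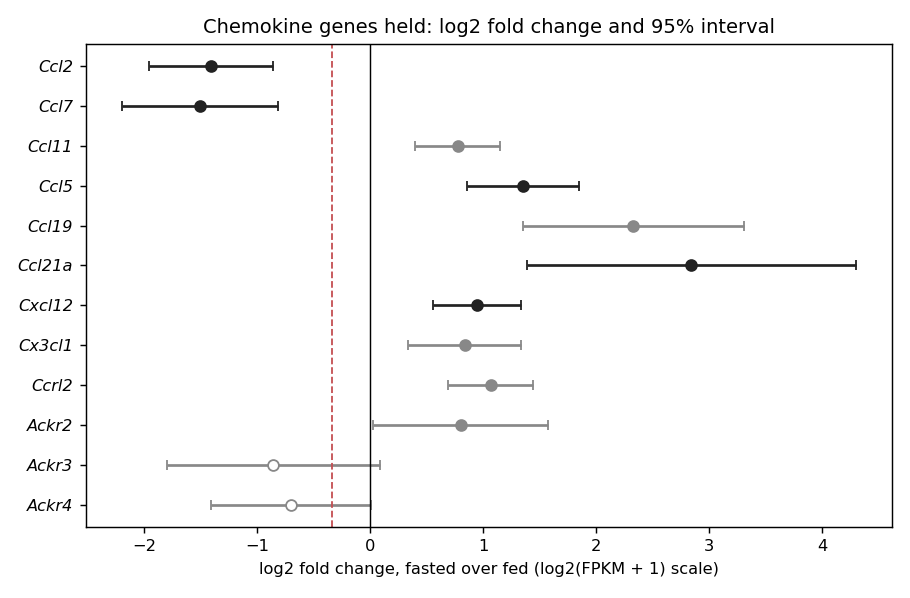
Points give the log2 fold change, fasted over fed on the log2(FPKM + 1) scale, of the 5 members (black) and the other chemokine genes held (grey), with 95% intervals from limma. Filled points passed the test, and the dashed line marks the median of all tested genes, -0.34. Ccl2 and Ccl7 stand to the left, 6 other ligands to the right, and Ackr3 and Ackr4 are open.

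Enzymes and matrix proteins that process or hold chemokines moved both ways, with 2 rises and 5 falls among 7 of 23 listed genes. Their median log2 fold change was -0.45, against -0.34 over all tested genes, of which 41.1% were called higher and 49.4% lower. Plau, the urokinase plasminogen activator, rose to 34.5 ± 5.37 FPKM in fasted tissue, against 13.1 ± 1.76 FPKM in fed tissue (log2 fold change 1.33 ± 0.16). Mmp14, a membrane metalloproteinase, rose as well (1.01 ± 0.19). Of the 5 falls, 3 passed with median-ratio or quantile scaling, and 3 without fasted replicate 1 or fed replicate 2. Gpc4, encoding a glypican that carries heparan sulfate chains, which bind chemokines, was 10.1 ± 0.498 FPKM in fasted and 23.1 ± 3.67 FPKM in fed tissue (-1.10 ± 0.14). Sulf2, encoding a sulfatase that trims them, fell by 1.03 on the log2 scale (SE 0.21). Plau and Gpc4 passed over all annotated genes (limma adjusted p = 0.0184 and 0.0245).

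Of 30 genes listed for signalling below chemokine receptors, 5 were held, and 1 rose and 2 fell (median -0.18), with 0 passing over all annotated genes. Among all tested genes 41.1% were called higher and 49.4% lower, with a median of -0.34. Prex1, encoding an exchange factor for Rac in leukocyte movement, rose (0.76 ± 0.18). The inhibitory G protein subunit genes Gnai1 (-0.74 ± 0.20) and Gnai3 (-0.34 ± 0.12) fell, and Gnai2 was 238 ± 21.4 FPKM in fasted and 270 ± 18.3 FPKM in fed tissue (limma adjusted p = 0.179), with a change that turned positive under median-ratio and quantile scaling. The fall of Gnai3 was lost with either scaling and without fasted replicate 1 or 3 or fed replicate 1 or 2 (adjusted p of 0.0609 to 0.309), and that of Gnai1 with quantile scaling (0.0526).

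Of 32 genes of NF-kB signalling and inflammatory cytokines, 8 were held, with 3 rises and 4 falls (median -0.48), and 1 rise and 0 falls over all annotated genes. These counts stand beside 41.1% of all tested genes called higher and 49.4% called lower, with a median of -0.34, and are no result about NF-kB genes in particular. Nfkbia, which encodes the inhibitor that keeps NF-kB in the cytoplasm, had 140, 137 and 123 FPKM in the fasted libraries, against 53.7, 53.9 and 70.6 FPKM in the fed libraries (1.17 ± 0.14, limma adjusted p = 0.00116). The leukocyte adhesion genes Icam1 (0.66 ± 0.15) and Vcam1 (1.01 ± 0.22) rose. Ltbr, the lymphotoxin receptor gene that acts in lymphoid stroma, fell (-0.66 ± 0.14), as did Tnfaip3 (-0.79 ± 0.21), a feedback inhibitor gene of NF-kB that was named after its values were seen. Of the 4 falls, 2 passed with median-ratio scaling, and 2 also without fed replicate 1 or without fasted replicate 2.

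Cell markers were held in small number. In the macrophage and monocyte list 2 of 12 were held and both fell, where 49.4% of all tested genes were called lower. Neither passed over all annotated genes (limma adjusted p = 0.160 for Itgam and 0.496 for Marco). Itgam, encoding CD11b, had 2.12, 3.86 and 2.38 FPKM in the fasted libraries, against 4.55, 7.35 and 8.38 FPKM in the fed libraries (-1.03 ± 0.25). Marco, a macrophage scavenger receptor gene, had 0.12, 0.75 and 0.45 FPKM in the fasted libraries, against 0.71, 2.36 and 4.38 FPKM in the fed libraries (-1.15 ± 0.40). The call of Marco was lost without fasted replicate 1 or 3 or fed replicate 2 or 3 (limma adjusted p of 0.062 to 0.0833). Itgam, like Ccl2 and Ccl7, was lower in every fasted library than in any fed library, and fed replicate 1 had the highest Ccl2 and the lowest fed Itgam and Marco. The part of macrophage and monocyte number in the levels of Ccl2 and Ccl7 was not tested. In the T and NK cell list 1 of 12 was held. It was Cd3e, a T cell receptor component, with 0.90, 0.89 and 0.98 FPKM in the fasted libraries, against 0.15, 0.20 and 0.23 FPKM in the fed libraries. Cd3e lay under the mean of 1 FPKM used for the test, and passed where no filter was applied (log2 fold change 0.69 ± 0.12, limma adjusted p = 0.00314). The T cell marker was higher in the fasted libraries, as was Ccl5, and the part of T cell number in the level of Ccl5 was not tested.

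Of 6 genes listed for lymphatic endothelium, Mmrn1 and Ccl21a were held. Ccl21a is itself a member and cannot serve as a marker for its own change. Mmrn1 had 0.79, 3.18 and 2.56 FPKM in the fasted libraries, against 0.66, 0.06 and 0.26 FPKM in the fed libraries (1.20 ± 0.34, adjusted p = 0.0134). Within each group Mmrn1 put the mice in the same order as Ccl21a did: fasted replicate 2 was highest, then fasted replicate 3 and fasted replicate 1, and fed replicate 1 was above fed replicate 3 and fed replicate 2. Of 6 lymph node stroma markers Ccl19 was held, and of 6 B cell markers and 6 mesothelial markers 0 were held. The part of lymphatic vessels or of lymph node tissue in the Ccl21a values was not tested. In fibroblasts and preadipocytes, a source of CXCL12 in fat, 3 of 8 markers were held and all 3 rose, where 41.1% of all tested genes were called higher and 0 of the 3 passed over all annotated genes. They were Pdgfrb (0.89 ± 0.21), Dcn (1.06 ± 0.24) and Ly6a (0.79 ± 0.23), beside the rise of 0.95 for Cxcl12, and their part in it was not tested. Of 8 adipocyte markers, 3 were held and fell, where 49.4% of all tested genes were called lower. They were Lep (-5.01 ± 0.49), Plin1 (-1.17 ± 0.23) and Retn (-0.58 ± 0.15), of which only Lep passed over all annotated genes (limma adjusted p = 0.0105). Retn missed the threshold with either scaling (adjusted p = 0.0752 and 0.0604), and was at least 2670 FPKM in every library. Of 6 epididymis markers, Adam7 was held and reached 2.05 FPKM in fed replicate 2, against 0 to 0.03 FPKM in the other 5 libraries. That library also had the lowest Ccl21a and the highest Ackr3, and the part of epididymal tissue in these values was not tested.

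**Figure D4:**
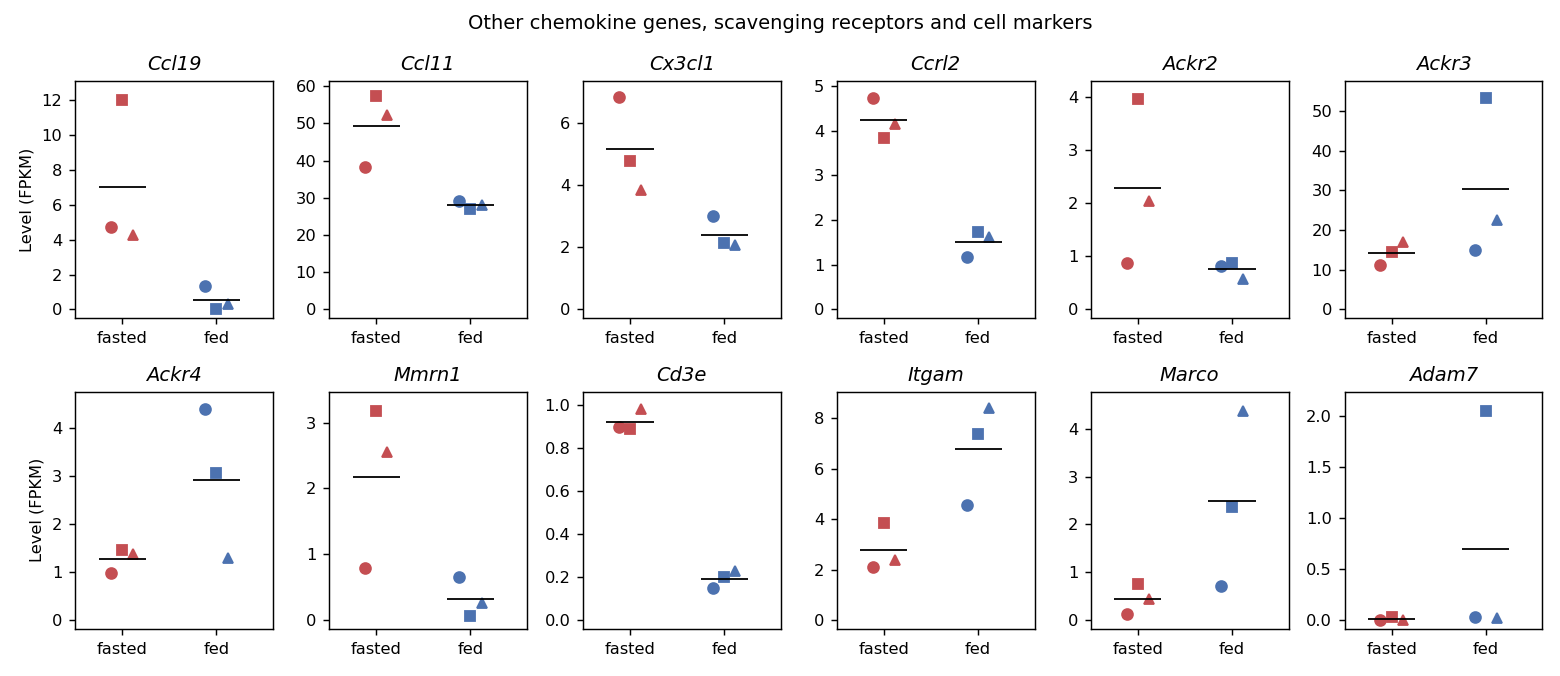
Levels in FPKM (linear axes, 1 panel per gene) of other chemokine genes held, scavenging receptors and cell markers, by library, with a marker shape per replicate as in the plot of member levels and a line at the group mean. Mmrn1 and Ccl19 are higher in fasted libraries, Itgam is lower, and Adam7 stands at 2.05 FPKM in 1 fed library.

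For each member the genes with the most similar profile were found by Pearson correlation of log2(FPKM + 1) over the 6 libraries, among the tested genes other than predicted ones. As nearly all genes held differ between the groups, high values are common and carry no test. Ccl2 was most like Sars2 (r = 0.990), encoding the mitochondrial seryl-tRNA synthetase, followed by Flot2 (0.987) and Cdc42bpa (0.986). Ccl7 was most like Mlkl, the executor of necroptosis, with r = 0.995, then Lmf2 (0.992) and Med24 (0.990). Ccl5 was closest to Chp2 (0.988), Ccn3 (0.987) and Cmtm3 (0.986), of which Ccn3, a secreted matricellular protein gene, had 8.53, 8.61 and 8.62 FPKM in the fasted libraries, against 4.25, 4.33 and 3.33 FPKM in the fed libraries.

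Ccl21a was closest to Chac1, encoding a glutathione-degrading enzyme, with r = 0.991, then to Negr1 (0.990) and Adap2 (0.989). Chac1 had 25.0, 39.4 and 40.3 FPKM in the fasted libraries, against 17.3, 7.72 and 12.2 FPKM in the fed libraries. Once the group means were removed, r with Ccl21a was 0.97 for Chac1, 0.97 for Negr1 and 0.98 for Adap2, over 3 fasted and 3 fed mice. Cxcl12 was closest to Adprm, Cdc14b and the ribosomal protein gene Rpl30, each with r = 0.999, and with r of 0.997, 0.991 and 0.993 once group means were removed. These values rest on 6 libraries. The genes were picked for a high r over the same libraries, so r with group means removed carries no test either.

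**Figure D5:**
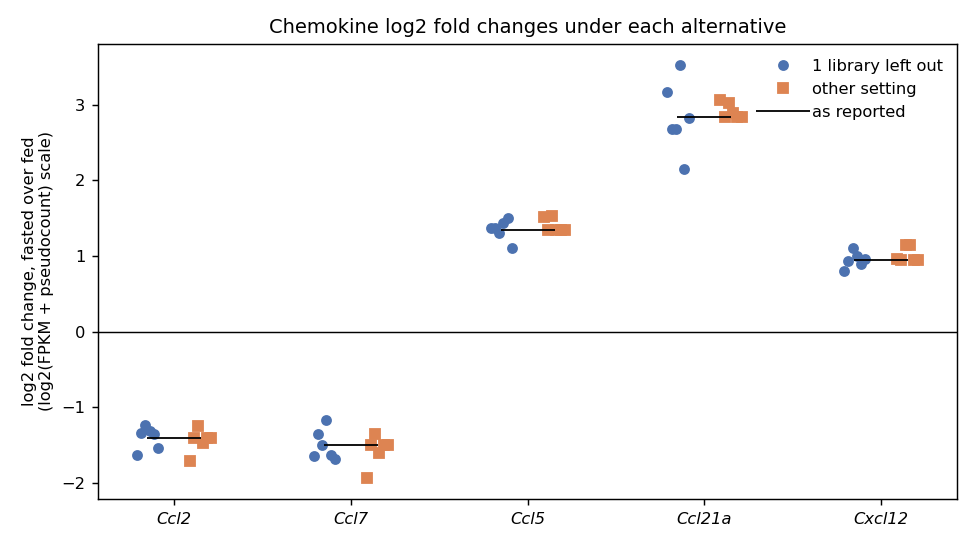
Log2 fold changes, fasted over fed, of the 5 members as reported (line), with 1 library left out (circles) and under the other settings (squares). Each gene stays on its side of 0 in all of them, though only quantile scaling could have changed that. Ccl21a spans the widest range, 2.16 to 3.53.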

How the data were processed

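Epididymal white adipose tissue of 3 fasted and 3 fed mice was sequenced, 1 library per mouse. Per the file headers, the deposited values are FPKM, rounded to 2 decimals or fewer. The submitters' processing notes name RSEM and the builds mm10 and GRCm38.p6. Neither the RSEM version nor the aligner is given in the sources used here. After this rounding, the reads behind a value could not be recovered and depth is unknown, so no counting interval is given. Strand is not recorded.

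Each file held the same 3162 genes, of which 3158 matched the GENCODE annotation of GRCm38 and 4 did not. The 2999 genes whose mean reached 1 FPKM were tested with limma 3.58.1 in R 4.3.3 (lmFit, eBayes with trend) on log2(FPKM + 1), two-sided, with Benjamini-Hochberg adjustment and a threshold of 0.05. The fit was also run on simulated data in which only a small part of the genes changed. In these data most genes tested were called, so that run does not bear on the adjusted p-values here. With 3 mice against 3 an exact permutation test cannot go below 0.1, so none is given.

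The members, lists and tests were chosen with earlier results of these data known. The genes named were the members, every chemokine ligand or receptor held, up to 4 genes of each other list with the smallest p, and the 3 genes most like each member. Others are marked. Alternatives covered the pseudocount, the filter, 2 scalings, the adjustment, the trend and leaving out each library. Sequences are from GENCODE transcripts and RefSeq promoters of GRCm38.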

Additional observations from a re-analysis of the deposited data

How the results depend on the processing

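The direction of each of the 5 chemokine genes was the same in all 12 alternatives, but only quantile scaling could have reversed it. Median-ratio scaling divided the libraries by factors of 0.911 to 1.14. That range is too narrow to close the gap between the nearest fasted and fed libraries, a ratio of 1.45 or more in each gene. The filter, the trend and the adjustment leave log2 fold changes as they were. As the groups do not overlap in these genes, neither the pseudocount nor leaving out a library can reverse a direction. Ccl5 also passed in all 12, and Ccl2, Ccl7, Ccl21a and Cxcl12 passed in 11. The exception was the adjustment over all annotated genes, where the log2 fold changes stay as they were by construction (-1.41 for Ccl2, -1.50 for Ccl7, 2.84 for Ccl21a and 0.95 for Cxcl12) and the limma adjusted p became 0.0535, 0.0873, 0.119 and 0.0616. With 1 library left out, the log2 fold change ranged from -1.64 to -1.23 for Ccl2, -1.69 to -1.17 for Ccl7, 1.11 to 1.50 for Ccl5, 2.16 to 3.53 for Ccl21a and 0.81 to 1.11 for Cxcl12. The 0.1 pseudocount gave -1.71 for Ccl2 and -1.94 for Ccl7, and moved low genes further, to 4.03 for Ccl19 (2.33 as reported), 2.49 for Mmrn1 (1.20), -2.15 for Marco (-1.15) and 1.27 for Ackr2 (0.80). Genes higher in fasted tissue numbered 1232, and 172 over all annotated genes. Genes lower numbered 1482, and 192 over all annotated genes and 787 with median-ratio scaling, which moved the median of all genes by 0.20. With 1 library left out, 1128 to 1230 genes were higher and 1036 to 1302 lower. Of the ligand list, 6 rises and 2 falls stood in 11 of 12 alternatives, counted after the data were seen, and 1 rise and 0 falls over all annotated genes. No paired analysis was possible because the labels give no replicate numbers that link fasted with fed mice. Genes near 1 FPKM and below, such as Ccl7 in fasted tissue, Cd3e and Mmrn1, are limited by the unknown number of reads. Rounding to 2 decimals adds little, except at the lowest values, such as 0.06 FPKM for Mmrn1 in fed replicate 2.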
